A study of Mus musculus with 36 samples.

Results

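The genes described here are 10 that skeletal muscle uses when it wastes, loses its nerve or regenerates. They were taken by symbol from the 56246 genes measured: Trim63, Fbxo32, Myog, Myod1, Mstn, Chrna1, Chrnd, Chrng, Musk and Gadd45a. They were measured in tibiae of 36 mice at 6 months of age, in 3 groups of 12 with 6 males and 6 females in each group. Wild-type (WT) mice carried no transgene and had no injection. The other 24 mice had the genotype given as LMNAG608G/G608G, called LMNA G/G here: they carry a human bacterial artificial chromosome with the LMNA mutation of Hutchinson-Gilford progeria, which also holds the gene RAB25, in a C57BL/6J background, and keep their own Lmna. Of these, 12 received saline and 12 an adenine base editor (ABE) aimed at the mutant base, brought by a pair of AAV9 vectors that each hold a part of the editor, all by retro-orbital injection at P14, 14 days after birth. Each library came from a single mouse. The authors describe the 3 groups as littermates, while the WT mice have a mouse number series of their own. Genotype, injection and any difference in handling between WT and LMNA G/G mice cannot be told apart.

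The bones were mostly cortical, as both ends and the marrow had been cut away, and osteoblast marker RNA was high in each library (summed level of 8 genes, 517 to 3106 scaled TPM). Other cells of bone were not equal between the groups: the summed level of 6 osteocyte markers had medians of 22.2 (WT), 359 (saline) and 258 (ABE), that of 8 osteoclast markers 143, 395 and 209, and that of 6 cartilage markers 110, 16.1 and 22.3. RNA of blood-forming cells was still present in each library. The summed level of 7 neutrophil markers had medians of 1404 (WT), 2421 (saline) and 1494 (ABE), and that of 6 erythroid markers 97.1, 126 and 59.5. Their part in the results was not tested. Muscle RNA was present in each library too, in very unequal amounts. The summed level of 25 genes of muscle fiber structure lay between 238 and 3327 scaled TPM in WT, between 388 and 8617 in saline-treated and between 1295 and 14783 in ABE-treated mice. In saline-treated against WT mice 20 of the 25 were higher (28.9% of all genes tested), in ABE-treated against WT 25 (37.5%), and in ABE-treated against saline-treated 23 (25.1%), with 0 lower in each comparison. The 10 genes are therefore given both as levels in the whole sample and relative to muscle. In bulk RNA, more muscle fibers in the sample and more of an RNA per fiber cannot be told apart by the level alone.

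Trim63 (MuRF1) and Fbxo32 (atrogin-1) encode ubiquitin ligases of muscle that mark proteins for breakdown by the proteasome and rise in most forms of muscle atrophy. Myog and Myod1 encode the transcription factors myogenin and MyoD, which drive muscle precursor cells to differentiate, and both rise again in fibers that have lost their nerve. Denervation likewise lets a fiber make acetylcholine receptor subunits along its whole length, among them the gamma subunit, which adult innervated muscle has replaced by epsilon.

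Promoter windows from RefSeq (GRCm38.p6, 250 bases before to 50 after the start site) were matched to 7 of the 10 genes, and not to Fbxo32, Myod1 or Chrnd. The windows of Myog, Chrna1, Musk and Mstn are shown because myogenin and MyoD bind the E-box, CANNTG, and because these 4 genes differ in how they stand to muscle amount below. They lie at chr1:134289754-134290053 (Myog, plus strand), chr2:73580289-73580588 (Chrna1, minus strand), chr4:58285712-58286011 (Musk, plus strand) and chr1:53061390-53061689 (Mstn, plus strand). Each is written 5′ to 3′ along its gene, and capitals mark matches to CANNTG.
Myog: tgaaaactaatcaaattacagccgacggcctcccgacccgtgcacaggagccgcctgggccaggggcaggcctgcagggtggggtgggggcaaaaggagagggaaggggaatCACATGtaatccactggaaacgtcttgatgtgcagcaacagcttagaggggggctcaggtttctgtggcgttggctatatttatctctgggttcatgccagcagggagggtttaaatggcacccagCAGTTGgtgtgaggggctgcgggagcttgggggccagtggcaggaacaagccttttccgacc
Chrna1: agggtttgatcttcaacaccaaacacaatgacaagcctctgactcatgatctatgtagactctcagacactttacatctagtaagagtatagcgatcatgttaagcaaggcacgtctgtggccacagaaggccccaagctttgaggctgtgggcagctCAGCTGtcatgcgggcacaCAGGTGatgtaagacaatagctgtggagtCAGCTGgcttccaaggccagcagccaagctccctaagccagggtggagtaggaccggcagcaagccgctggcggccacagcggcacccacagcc
Musk: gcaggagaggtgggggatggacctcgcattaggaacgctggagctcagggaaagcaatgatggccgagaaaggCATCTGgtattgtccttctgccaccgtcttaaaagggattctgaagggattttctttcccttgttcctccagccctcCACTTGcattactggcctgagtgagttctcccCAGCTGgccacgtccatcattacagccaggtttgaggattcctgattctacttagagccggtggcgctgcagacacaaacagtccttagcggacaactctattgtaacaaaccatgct
Mstn: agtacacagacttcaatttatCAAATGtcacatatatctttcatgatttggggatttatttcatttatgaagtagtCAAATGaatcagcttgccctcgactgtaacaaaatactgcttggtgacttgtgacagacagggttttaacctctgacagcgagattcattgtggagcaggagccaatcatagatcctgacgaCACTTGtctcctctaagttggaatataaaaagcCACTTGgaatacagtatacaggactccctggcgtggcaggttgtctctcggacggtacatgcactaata

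CANNTG was searched on both strands and was present in all 7 windows. It is present in 72.3% of the 32851 windows of the same length, so its presence sets none of them apart. Mstn held 4 matches, as many as 6.49% of windows hold. Trim63, Chrna1, Chrng and Musk held 3 (17.6% of windows hold as many), Myog held 2 (39.6%) and Gadd45a held 1. The form CAGCTG, which is contained in CANNTG, occurred at 2 places in Chrna1 and in Chrng (1.90% of windows hold as many), and at 1 place in Trim63 and in Musk (16.3%). TATAAA was found in Trim63 and Mstn (13.6% of windows). A match describes the letters of a window, not binding.

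Levels are TPM divided by 1 factor per library (scaled TPM, see the processing), which makes the median gene equal between libraries. They are small numbers because very short genes take between 84.7% and 96.6% of the deposited TPM. Depth ranged from 48064068 to 116206662 reads on genes per library. Over the 36 libraries Gadd45a had the highest median of the 10, at 8.09 scaled TPM, followed by Fbxo32 (3.35), Trim63 (2.72), Myod1 (1.17), Musk (0.433), Mstn (0.373), Myog (0.220), Chrna1 (0.121), Chrnd (0.0522) and Chrng (0.00675). Muscle amount was defined in each library as the geometric mean of scaled TPM of Acta1, skeletal muscle actin, and Ckm, muscle creatine kinase. It lay between 29.1 and 456 in WT (median 147), between 43.2 and 1161 in saline-treated (median 305) and between 148 and 1991 in ABE-treated mice (median 955). The groups overlapped and their order was WT, saline, ABE. On the log2 scale the difference was 1.23 (SE 0.49) for saline against WT, with a permutation p of 0.0198 (two-sided, 100000 resamples, the same after adjustment over 3 comparisons), 2.54 (SE 0.43) for ABE against WT (adjusted permutation p = 0.00012) and 1.31 (SE 0.47) for ABE against saline (adjusted permutation p = 0.0149).

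A few libraries stand apart and bear on the values below. Muscle amount was lowest in the WT males 599M and 617M and in the saline-treated female F309418. The saline-treated female F209536 had the highest levels of the receptor genes Chrna1, Chrnd and Chrng among the saline-treated mice, and is described on its own below. The ABE-treated female F109436 needed a scaling factor of 0.219, the lowest of the 36.

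**Figure D1:**
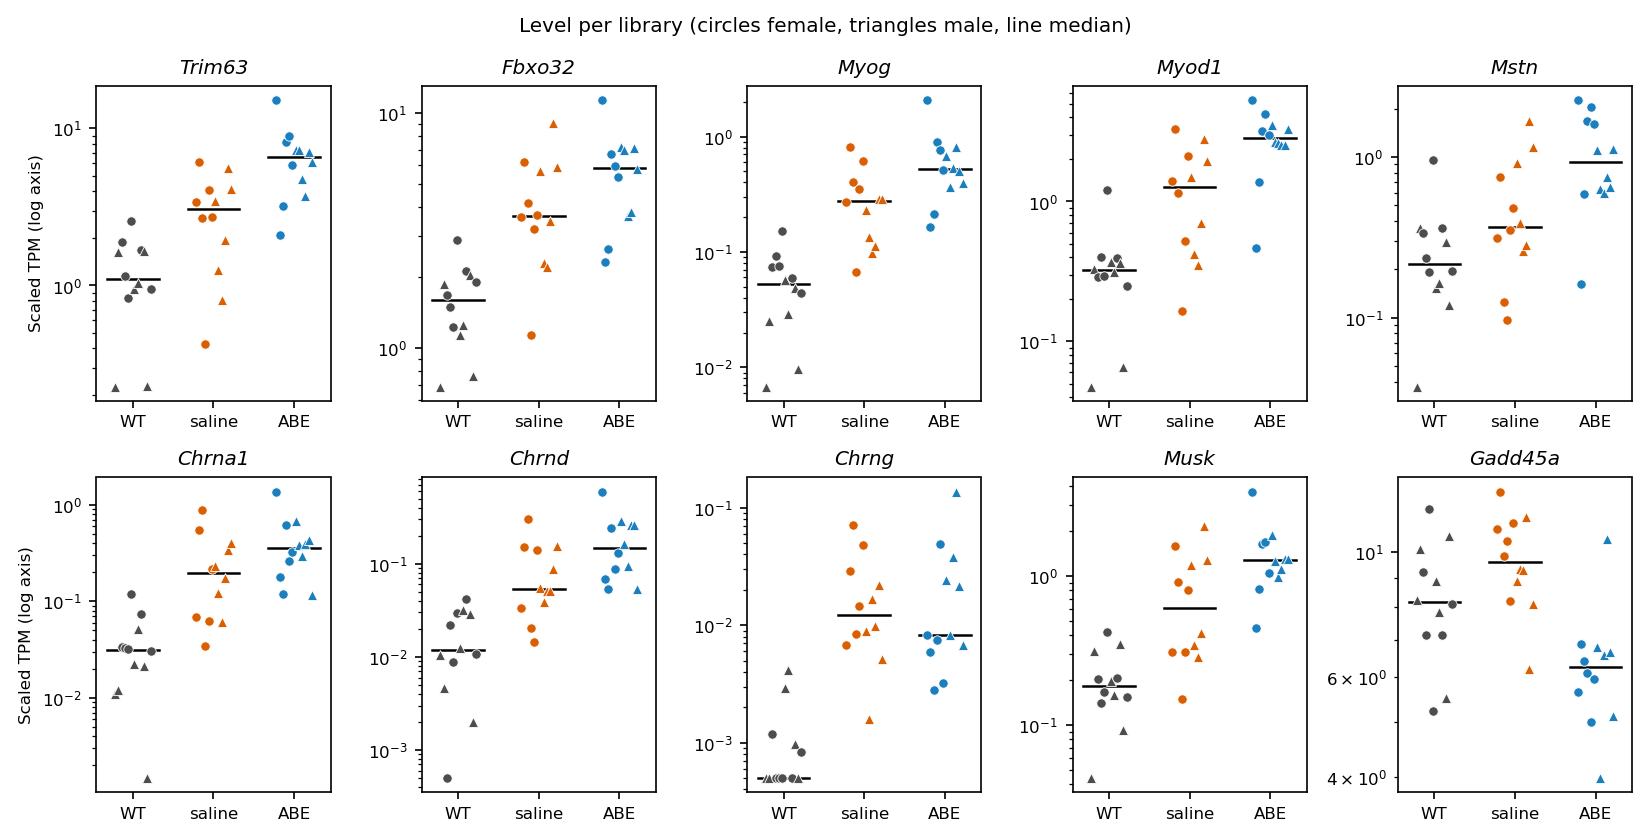
Scaled TPM of the 10 genes (vertical axes, log scale) in WT, saline-treated and ABE-treated tibiae. Each point is 1 mouse (circles female, triangles male), the line is the group median, and libraries at 0 are drawn at the lower edge. Medians climb from WT to saline to ABE for 8 genes, Chrng is near 0 in WT, and Gadd45a is lowest in ABE-treated mice.

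In saline-treated against WT tibiae, 7 of the 9 genes tested were higher (limma, Benjamini-Hochberg adjusted p under 0.05). They were both ubiquitin ligases, both myogenic factors, the alpha and delta receptor subunits and Musk. The delta subunit gene Chrnd passed the filter on low values only through the LMNA G/G groups. Its calls against WT, here and in the counts below, are no support of their own. Of all 21557 genes tested, 28.9% were higher and 55.8% were called in either direction. The median log2 fold change of the 9 genes was 1.70, beside 0.02 for all genes, and Acta1 and Ckm rose as well, by 1.38 (SE 0.46, limma adjusted p = 0.011) and 1.08 (SE 0.47, limma adjusted p = 0.0494). The value of Ckm did not pass in 25 of 36 runs with 1 library left out (limma adjusted p up to 0.106). In ABE-treated against WT tibiae 8 of 9 were higher, where 37.5% of all genes were, and Gadd45a was lower, where 36.6% of all genes were and 74.1% were called in either direction. In ABE-treated against saline-treated tibiae 6 of 9 were higher, where 25.1% of all genes were, and again Gadd45a was lower, where 24.4% were and 49.4% were called in either direction. Both LMNA G/G groups are compared with the same WT mice, and the saline-treated mice enter the first and the last comparison, so these comparisons are not independent.

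Trim63 lay between 0.227 and 2.58 scaled TPM in WT (median 1.09), between 0.424 and 6.11 in saline-treated (median 3.07) and between 2.09 and 15.1 in ABE-treated mice (median 6.59). Thus 8 of the 12 saline-treated and 11 of the 12 ABE-treated mice exceeded each WT mouse, and 6 ABE-treated mice exceeded each saline-treated mouse. It was higher by 1.27 on the log2 scale in saline-treated than in WT mice (SE 0.40, limma adjusted p = 0.00762) and by a further 1.27 in ABE-treated mice (SE 0.40, limma adjusted p = 0.00949). Fbxo32 lay between 0.686 and 2.90 in WT (median 1.60), between 1.14 and 9.11 in saline-treated (median 3.66) and between 2.32 and 11.4 in ABE-treated mice (median 5.88). Of the saline-treated mice 9 exceeded each WT mouse, but only 1 ABE-treated mouse exceeded each saline-treated mouse. The log2 fold change of Fbxo32 was 1.33 for saline against WT (SE 0.28, limma adjusted p = 0.000156) and 1.82 for ABE against WT (SE 0.28, limma adjusted p = 7.22e-07). Between ABE and saline it was 0.49 (SE 0.28, limma adjusted p = 0.137), and did not pass.

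Myog, the gene of myogenin, had very little RNA in WT tibiae, between 0.00679 and 0.152 scaled TPM (median 0.0529), which is 3 to 54 reads. It reached 0.0663 to 0.814 in saline-treated (median 0.277, 38 to 264 reads) and 0.165 to 2.06 in ABE-treated mice (median 0.521, 54 to 488 reads). No ABE-treated mouse overlapped with WT, and 8 of the 12 saline-treated mice lay above the highest WT mouse. The log2 fold change was 2.19 for saline against WT (SE 0.36, limma adjusted p = 5.33e-06), 3.31 for ABE against WT (SE 0.36, limma adjusted p = 1.95e-09) and 1.12 for ABE against saline (SE 0.36, limma adjusted p = 0.0114). Myod1, which acts earlier than Myog in precursor cells, lay between 0.0475 and 1.2 in WT (median 0.322), between 0.166 and 3.28 in saline-treated (median 1.27) and between 0.463 and 5.28 in ABE-treated mice (median 2.83). Here 6 saline-treated and 11 ABE-treated mice lay above WT. Its log2 fold change was 1.79 for saline against WT (SE 0.45, limma adjusted p = 0.00111) and 1.35 for ABE against saline (SE 0.45, limma adjusted p = 0.0138).

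Mstn encodes myostatin, a secreted inhibitor of muscle growth made by the fibers themselves. It lay between 0.0372 and 0.956 scaled TPM in WT (median 0.216), between 0.0968 and 1.67 in saline-treated (median 0.369) and between 0.161 and 2.26 in ABE-treated mice (median 0.928). Only 2 saline-treated mice exceeded each WT mouse, and the difference of 0.87 on the log2 scale did not pass (SE 0.44, limma adjusted p = 0.0879). It passed without the WT female 604F, the saline-treated female F209536 or the saline-treated female F309418, at 1.03 to 1.07. ABE-treated mice were higher than WT by 1.97 (SE 0.44, limma adjusted p = 0.000166) and than saline-treated mice by 1.09 (SE 0.44, limma adjusted p = 0.0381).

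Among the subunits of the muscle acetylcholine receptor, the alpha subunit gene Chrna1 lay between 0.00148 and 0.120 scaled TPM in WT (median 0.0314, 2 to 139 reads), between 0.0348 and 0.891 in saline-treated (median 0.196, 65 to 1141 reads) and between 0.117 and 1.36 in ABE-treated mice (median 0.352, 129 to 1051 reads). Of the 12 saline-treated mice 8 lay above WT, and of the 12 ABE-treated mice 10. It had a log2 fold change of 2.26 for saline against WT (SE 0.44, limma adjusted p = 5.65e-05) and 3.17 for ABE against WT (SE 0.44, limma adjusted p = 1.4e-07), while the 0.91 between ABE and saline did not pass (SE 0.44, limma adjusted p = 0.0814). That difference passed without saline F209536, at 1.11 (limma adjusted p = 0.033), saline F109466, at 1.04, or ABE F309431, at 1.06. The delta subunit gene Chrnd had 0 to 30 reads in WT, with 1 library at 0, and its scaled TPM was at most 0.0415 (median 0.0117). It lay between 0.0144 and 0.303 in saline-treated (median 0.0530, 13 to 286 reads) and between 0.0531 and 0.590 in ABE-treated mice (median 0.146, 42 to 336 reads). Each ABE-treated mouse was above WT, as for Myog. The log2 fold change of Chrnd was 1.70 for saline against WT (SE 0.39, limma adjusted p = 0.000464), 2.73 for ABE against WT (SE 0.39, limma adjusted p = 2.55e-07) and 1.03 for ABE against saline (SE 0.39, limma adjusted p = 0.0282).

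Chrng, the gene of the fetal gamma subunit, was all but missing from WT tibiae, with 0 reads in 7 of the 12 libraries, at most 4 reads in any and 10 reads in all. Saline-treated libraries held 2 to 87 reads each (median 16, sum 291) and ABE-treated libraries 3 to 196 (median 7, sum 354). In 11 saline-treated and 10 ABE-treated libraries the number of reads was above 3, beside 1 in WT. In scaled TPM, 11 of the 12 saline-treated and 10 of the 12 ABE-treated mice lay above the highest WT mouse (0.00414). Chrng was too rare for the filter on low values and had no place in the main test. Tested without a filter, it was higher than in WT in both LMNA G/G groups (limma adjusted p = 0.00213 for saline and 0.000804 for ABE), while saline and ABE differed by 0.05 on the log2 scale (95% interval -0.60 to 0.69). Chrng is the neighbour of Chrnd on chromosome 1: Chrnd spans bases 87190607 to 87200070 and Chrng bases 87204657 to 87212694 of GRCm38, both on the plus strand.

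Musk encodes the receptor kinase that gathers acetylcholine receptors at the nerve ending. It lay between 0.0439 and 0.418 scaled TPM in WT (median 0.182), between 0.148 and 2.16 in saline-treated (median 0.607) and between 0.448 and 3.66 in ABE-treated mice (median 1.28). Again no ABE-treated mouse overlapped with WT. Musk thus joined Myog and Chrnd as the 3 of 9 genes without overlap between ABE-treated and WT mice, where 4.24% of all genes tested were separated in this direction, and none of the 9 was separated upward in saline against WT (2.9% of all genes) or in ABE against saline (0.0325%). Chrnd had a mean of 0.0169 scaled TPM in WT and passed the filter of 0.02 only through the LMNA G/G groups. Its separation and its tests against WT are therefore no support of their own. The log2 fold change was 1.71 for saline against WT (SE 0.37, limma adjusted p = 0.000247), 2.77 for ABE against WT (SE 0.37, limma adjusted p = 8.94e-08) and 1.06 for ABE against saline (SE 0.37, limma adjusted p = 0.0189).

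Gadd45a, a stress-induced gene that atrophying muscle uses but many other cells use as well, moved apart from the rest. It lay between 5.22 and 11.9 scaled TPM in WT (median 8.16), between 6.21 and 12.8 in saline-treated (median 9.60) and between 3.98 and 10.6 in ABE-treated mice (median 6.26). Of the 12 ABE-treated mice 6 lay below each saline-treated mouse and 3 below each WT mouse. The log2 fold change was 0.24 for saline against WT (SE 0.13, limma adjusted p = 0.118), -0.40 for ABE against WT (SE 0.13, limma adjusted p = 0.00725) and -0.64 for ABE against saline (SE 0.13, limma adjusted p = 0.000634). Markers of some marrow and bone cells were lower in ABE-treated than in saline-treated mice as well, where 24.4% of all genes were. They were 6 of 7 neutrophil genes (median log2 fold change -0.79), 5 of 5 macrophage genes (-0.63), 5 of 6 erythroid genes (-1.07) and 6 of 8 osteoclast genes (-0.58). Of 5 adipocyte genes 4 were lower as well (-0.88). In each of these lists 0 were higher. Other lists did not fall: 1 of 6 B cell genes (0.13) and 1 of 6 osteocyte genes (-0.11) were lower. Of 8 osteoblast genes 1 was lower and 1 higher (0.11). The summed neutrophil level lay between 718 and 2340 scaled TPM in WT, between 973 and 3467 in saline-treated and between 329 and 3768 in ABE-treated mice. The part of these cells in the level of Gadd45a was not tested.

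**Figure D2:**
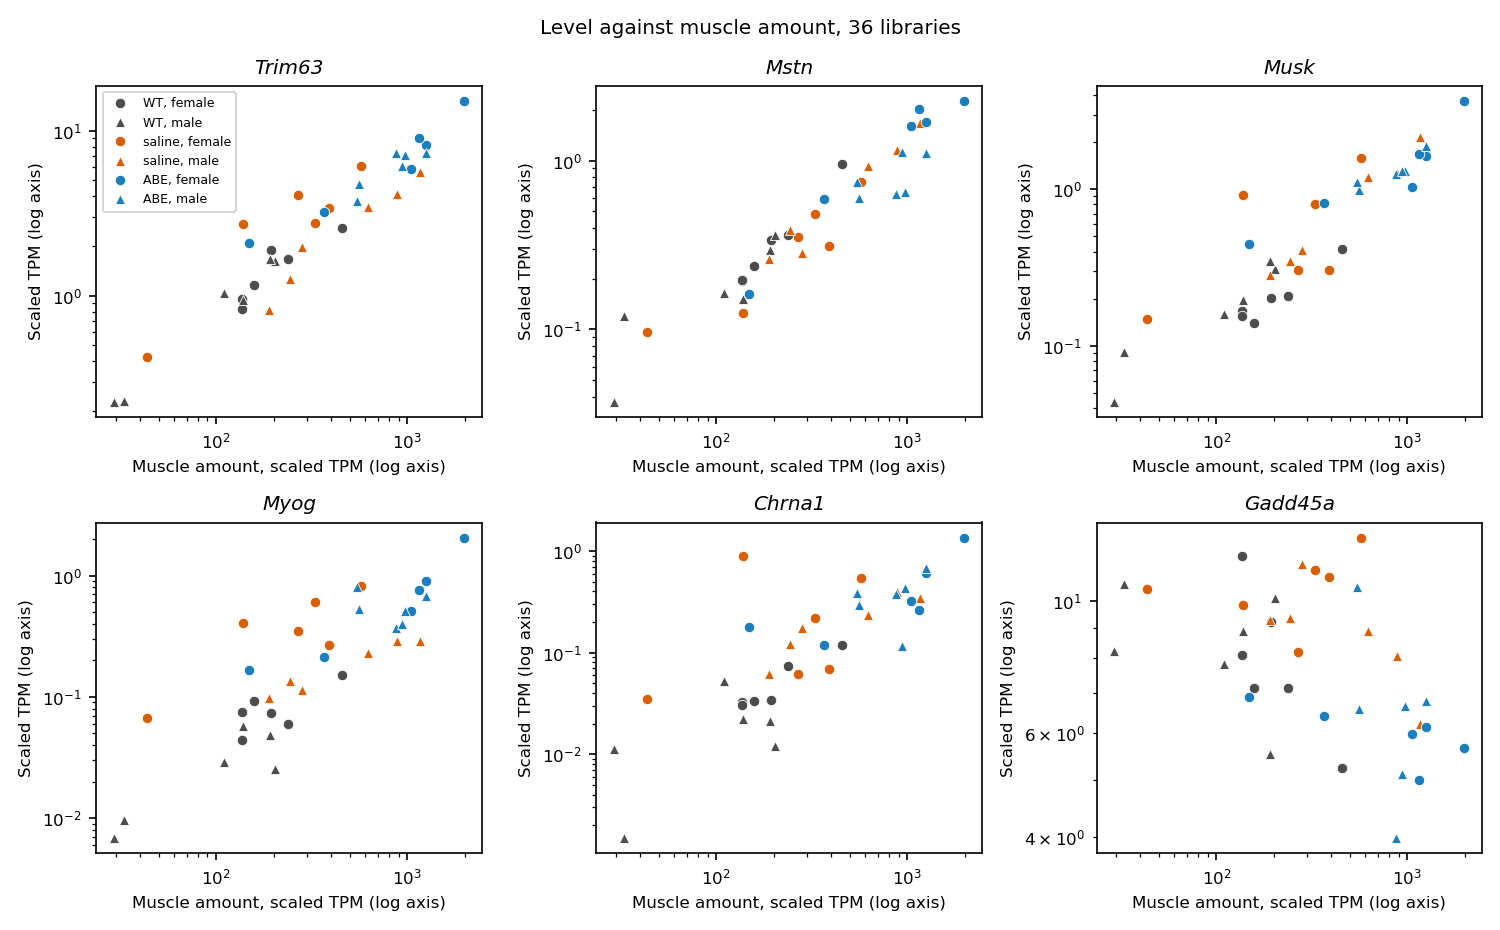
Scaled TPM of 6 of the genes (vertical axes) against muscle amount, the geometric mean of scaled TPM of Acta1 and Ckm (horizontal axes), both on log scales, for 36 mice coloured by group. Most genes climb with muscle amount and Gadd45a does not.

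How closely each gene followed muscle within the groups was measured by its slope on the log2 muscle amount, with group and sex in the model. A slope of 1 means that the gene rose in proportion to Acta1 and Ckm. Slopes were positive for 8 of the 9 genes, where 28.9% of all genes tested had a positive slope that passed and 29.4% a negative one. Myod1 (0.90, SE 0.07), Mstn (0.90, SE 0.06) and Trim63 (0.81, SE 0.06) were nearest to proportion. Musk (0.69, SE 0.07), Myog (0.62, SE 0.08), Chrna1 (0.60, SE 0.13) and Fbxo32 (0.56, SE 0.04) rose less steeply, and Chrnd least (0.37, SE 0.13, limma adjusted p = 0.0179). The 0.01 added before taking logs flattens the slope of a gene whose level lies near it. In WT the medians of Chrnd (0.0117), Chrna1 (0.0314) and Myog (0.0529) were near it, and its part in their slopes was not tested. The slope of Chrnd did not pass without the saline-treated female F309418. Gadd45a had a small negative slope (-0.12, SE 0.05, limma adjusted p = 0.028), which did not pass without 1 of 3 libraries (WT 604F, WT 617M or saline M309451).

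The genes whose log2 levels were most like each member over the 36 libraries, once the means of group and sex were removed, were searched among all genes tested. Trim63 was nearest to Serinc2 (Pearson r = 0.96), Fbxo32 to Klhl38 (r = 0.96), Myod1 to Rbm24 (r = 0.96), Mstn to Plcd4 (r = 0.96), Musk to Myf6 (r = 0.94) and Myog to Bex1 (r = 0.90). Chrna1 and Chrnd were nearest to each other, at r = 0.88, and the next genes followed at 0.81 for Chrna1 (Myom3) and 0.74 for Chrnd (2310020H05Rik). Chrnd followed Acta1 at r = 0.47 only, whereas Mstn followed Ckm at r = 0.94. Gadd45a was nearest to Bsdc1 (r = 0.92). These correlations describe 36 libraries that share the same differences in muscle content and depth.

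Relative to muscle amount, most of the differences between groups were small or went the other way, and the myogenic factors and Chrna1 were the exceptions. Levels are given here per 1000 units of muscle amount. On this scale a gene with no tie to muscle falls where muscle rises, so that of all genes tested 67.7% were lower in saline-treated than in WT mice and 0.357% higher (median log2 difference -1.21). The number of genes called in this comparison ranged from 7637 (without WT 599M) to 19096 with 1 library left out, and was also low without WT 617M (7821), saline M309451 (7947) or saline M409446 (8756), where all 36 libraries gave 14668. In ABE against WT mice 96.2% were lower and 0.116% higher (median -2.54), and in ABE against saline 83% lower and 0.204% higher (median -1.31). Of the 9 members, 2 were higher in saline-treated than in WT mice (Myog and Chrna1). In ABE-treated against WT mice 2 were higher (Myog and Myod1) and 2 lower (Fbxo32 and Gadd45a), and in ABE-treated against saline-treated mice 2 were lower (again Fbxo32 and Gadd45a).

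Trim63 per muscle amount was nearly level between the groups, with medians of 7.23 in WT (5.67 to 9.76), 7.65 in saline-treated (4.28 to 19.6) and 7.44 in ABE-treated mice (5.55 to 14.1). Its log2 difference was 0.04 for saline against WT (95% interval -0.54 to 0.61) and 0.00 for ABE against WT (-0.57 to 0.58). Fbxo32 had medians of 9.42 (6.35 to 23.5), 11 (6.67 to 30.2) and 6.36 (5.08 to 15.6). It was lower in ABE-treated mice, by -0.71 on the log2 scale against WT (SE 0.31, limma adjusted p = 0.0285) and -0.81 against saline (SE 0.31, limma adjusted p = 0.0209). The former did not pass without WT 599M or without WT 617M, at -0.61 in each case.

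Myog per muscle amount had medians of 0.308 in WT (0.124 to 0.590), 0.62 in saline-treated (0.249 to 2.94) and 0.616 in ABE-treated mice (0.421 to 1.49). In each LMNA G/G group 6 of 12 mice lay above the highest WT mouse. The log2 difference was 0.96 for saline against WT (SE 0.35, limma adjusted p = 0.0222), 0.77 for ABE against WT (SE 0.35, limma adjusted p = 0.034) and -0.19 for ABE against saline (95% interval -0.89 to 0.52). These calls rest on the small amount added before taking logs: with 0.1 in place of 0.01 the difference for Myog was 0.01 between saline and WT and -0.43 between ABE and WT, and the latter also did not pass when 1 of 6 single libraries was left out. Myod1 had medians of 1.95 (1.49 to 2.85), 2.46 (1.74 to 8.31) and 3.09 (2.52 to 4.68), and 7 ABE-treated mice lay above WT. Its difference of 0.61 between ABE and WT only just passed (SE 0.30, limma adjusted p = 0.0497), and not in 25 of 36 runs with 1 library left out, and the 0.56 between saline and WT did not (SE 0.30, limma adjusted p = 0.0848). Mstn, with medians of 1.52, 1.35 and 1.16, differed by -0.36 between saline and WT (95% interval -0.94 to 0.22) and by -0.57 between ABE and WT (-1.15 to 0.01).

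Chrna1 per muscle amount had medians of 0.216 in WT (0.0448 to 0.472), 0.478 in saline-treated (0.178 to 6.47) and 0.466 in ABE-treated mice (0.125 to 1.2), and 6 mice of each LMNA G/G group lay above WT. The difference of 1.03 between saline and WT passed (SE 0.42, limma adjusted p = 0.0331), but not without the saline-treated female F209536, at 0.72 (limma adjusted p = 0.0717), nor without WT 600M or saline F109466, and with 0.1 added before taking logs it was -0.0652. Chrnd had medians of 0.0853 (0 to 0.356), 0.180 (0.0537 to 2.20) and 0.188 (0.0566 to 0.477), and Musk of 1.32 (0.875 to 2.78), 1.68 (0.787 to 6.65) and 1.49 (0.989 to 3.02). Neither passed in any of the 3 comparisons on this scale. For saline against WT the log2 difference was 0.47 for Chrnd (95% interval -0.47 to 1.41) and 0.48 for Musk (-0.18 to 1.13). Gadd45a, which did not climb with muscle, had medians of 54.5 (WT), 32.4 (saline) and 5.56 (ABE), with a difference of -2.94 between ABE and WT (SE 0.52, limma adjusted p = 2.78e-06) close to the -2.54 of the median gene.

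**Figure D3:**
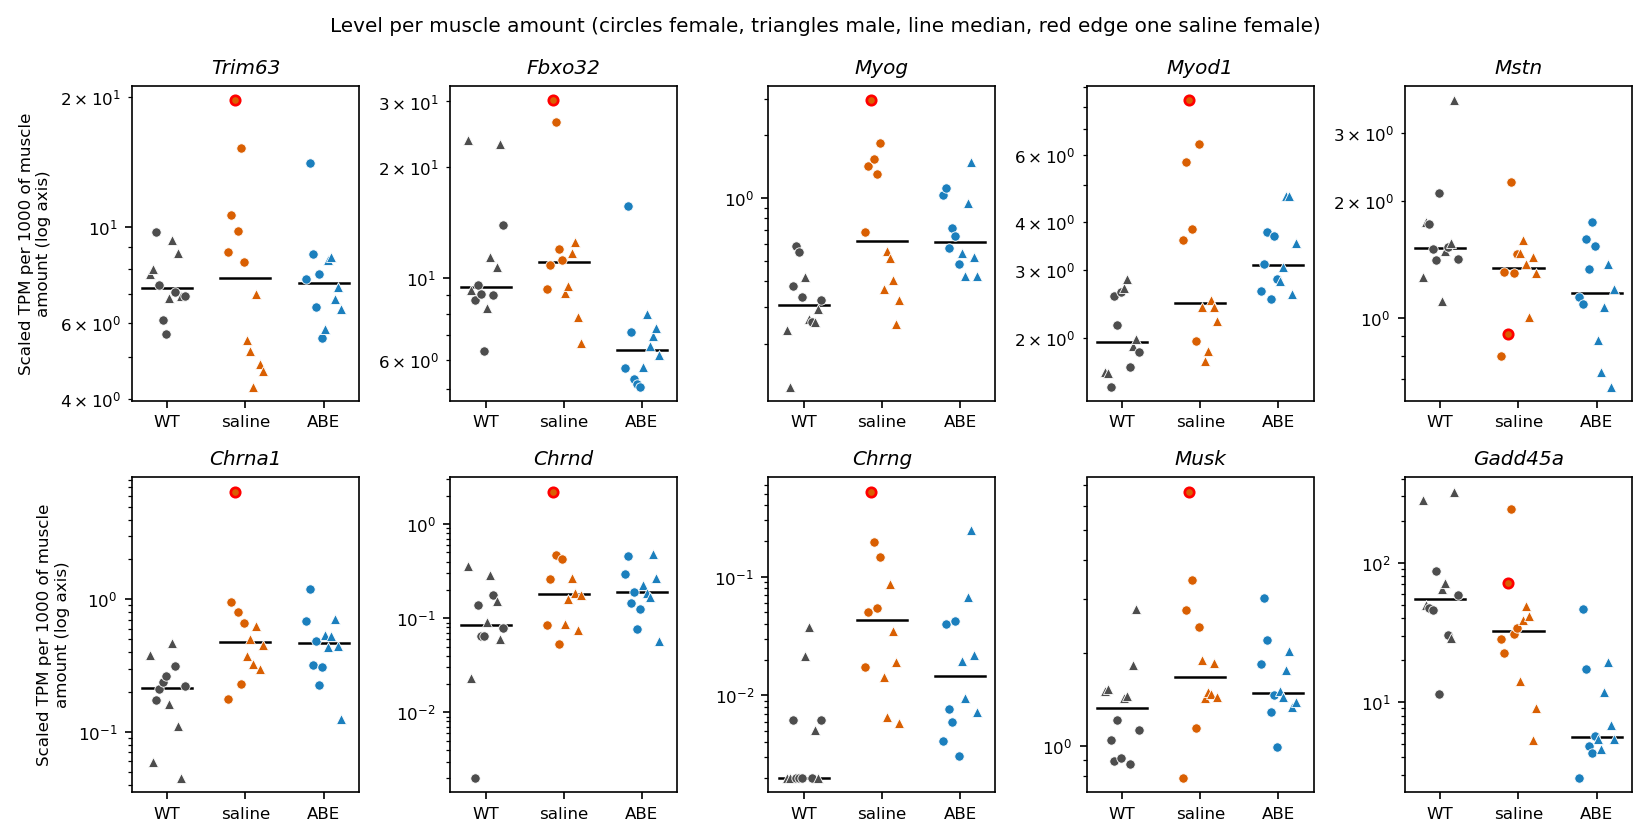
The 10 genes per 1000 units of muscle amount (vertical axes, log scale) in WT, saline-treated and ABE-treated tibiae. Points are mice (circles female, triangles male), lines are medians, libraries at 0 are drawn at the lower edge, and the red edge marks the saline-treated female F209536, which is highest of the saline-treated mice in 8 of the 10 genes.

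A ratio assumes that a gene rises in proportion to muscle, which the fitted slopes show for few of these genes. For the rare genes Chrnd, Chrna1 and Myog the slopes, and so the covariate differences, depend in part on the 0.01 added before taking logs. With log2 muscle amount as a covariate, which uses the measured slope instead, 7 of the 9 genes were higher in saline-treated than in WT mice, where 24.8% of all genes were. These were Chrna1 (1.53, SE 0.38, limma adjusted p = 0.00123), Myog (1.43, SE 0.25, limma adjusted p = 1.64e-05), Chrnd (1.24, SE 0.39, limma adjusted p = 0.00883), Musk (0.86, SE 0.22, limma adjusted p = 0.00162), Myod1 (0.69, SE 0.21, limma adjusted p = 0.00684), Fbxo32 (0.63, SE 0.12, limma adjusted p = 4.9e-05) and Gadd45a (0.38, SE 0.13, limma adjusted p = 0.0171). Trim63, at 0.27 (SE 0.17, limma adjusted p = 0.185), and Mstn, at -0.23, did not pass, and in males alone Trim63 was lower, at -0.59 (limma adjusted p = 0.0175). Without the saline-treated female F209536 the same fit gave 1.14 for Chrna1, 1.28 for Myog, 0.91 for Chrnd and 0.66 for Musk, and each still passed. Over 7 settings of this fit, each sex alone among them, Myog passed in each (limma adjusted p up to 0.0112). Musk ranged down to 0.04 (limma adjusted p up to 0.907) and Myod1 down to 0.03 (up to 0.947). Chrna1 (up to 0.0560), Fbxo32 (up to 0.141), Chrnd (up to 0.201) and Gadd45a (up to 0.220) also did not pass in every setting. Gadd45a did not pass without WT 604F, at 0.31 (limma adjusted p = 0.0603).

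In ABE-treated against WT mice the covariate left 6 of the 9 genes higher, where 21.2% of all genes were. They were Myog (1.74, SE 0.31, limma adjusted p = 5.74e-05), Chrna1 (1.66, SE 0.48, limma adjusted p = 0.00642), Musk (1.01), Myod1 (0.87), Fbxo32 (0.39) and Chrnd (1.79, SE 0.49, limma adjusted p = 0.00436). Chrnd passed the filter on low values only through the LMNA G/G groups, so its call is no support of its own. Trim63, at 0.48, did not pass (SE 0.21, limma adjusted p = 0.0628, 95% interval 0.06 to 0.91), nor did Mstn, at -0.31 (limma adjusted p = 0.274), or Gadd45a, at -0.10 (limma adjusted p = 0.647). With 1 library left out, Fbxo32 did not pass in 8 of 36 runs (limma adjusted p up to 0.103), and Trim63 passed in 6. Over the same 7 settings Myog passed in each (limma adjusted p up to 0.0220). Chrnd (up to 0.0986), Chrna1 (up to 0.140), Myod1 (up to 0.148), Fbxo32 (up to 0.510) and Musk (up to 0.849) did not pass in every setting. Between ABE-treated and saline-treated mice none of the 8 genes that follow muscle passed once muscle amount was in the model. Of all genes 8.09% were higher in this fit of all 36 mice. In a fit of males alone 3 of the 8 passed, Myog at 1.09 (limma adjusted p = 0.0108), Myod1 at 0.68 (limma adjusted p = 0.0226) and Trim63 at 0.48 (limma adjusted p = 0.0230). None of the 7 settings of this fit, males alone among them, called more than 2938 of the 21557 genes in either direction. In females alone none did, but there only 2 of all 21557 genes were called, so these counts cannot compare the sexes. In all 36 mice the differences of the 8 genes ranged from -0.24 for Fbxo32 (95% interval -0.49 to 0.00) to 0.55 for Chrnd (-0.25 to 1.36), with 0.31 for Myog (-0.20 to 0.82), 0.22 for Trim63 (-0.13 to 0.56), 0.16 for Musk (-0.30 to 0.61) and 0.13 for Chrna1 (-0.65 to 0.92). These intervals leave room for differences of more than 0.8 on the log2 scale for Myog, Chrna1 and Chrnd. Gadd45a was still lower in ABE-treated mice, by -0.49 (SE 0.14, limma adjusted p = 0.0182), where 4.49% of all genes were lower and 12.6% were called.

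**Figure D4:**
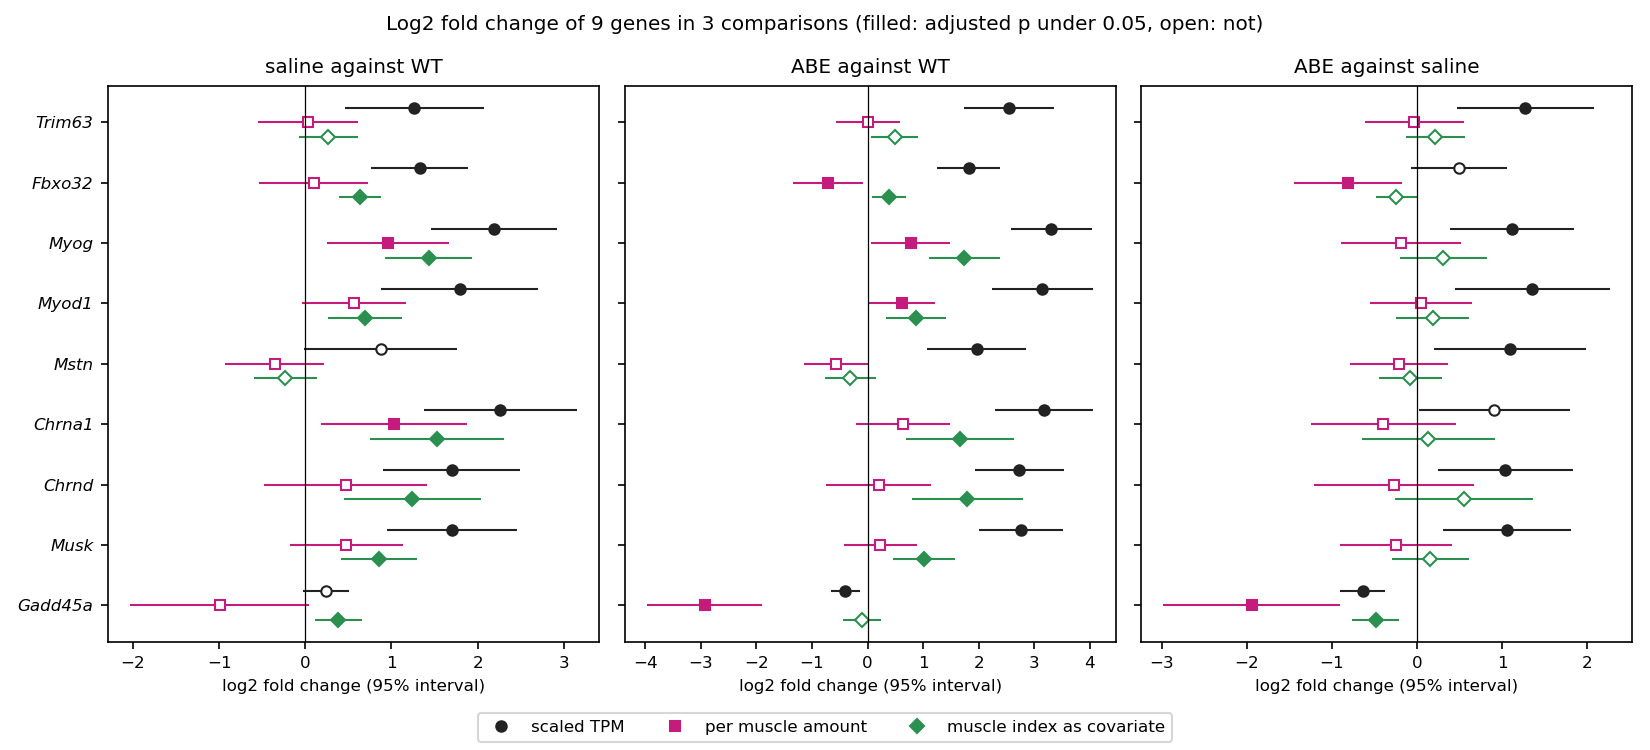
Log2 fold changes (horizontal axes, bars are 95% intervals) of the 9 genes tested in the 3 comparisons, as scaled TPM (black circles), per muscle amount (magenta squares) and with the muscle index as covariate (green diamonds). Filled symbols have an adjusted p under 0.05. Against WT, Myog lies above 0 on all 3 scales in both LMNA G/G groups.

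The 10 genes were also compared within each sex. In males muscle amount was higher in saline-treated than in WT mice by 2.31 on the log2 scale (adjusted exact permutation p = 0.00974, 6 against 6), and in females by 0.15 (adjusted exact permutation p = 0.82). In males 8 of 9 genes were higher in saline-treated than in WT mice, where 29.1% of all genes were, with Chrna1 (2.91, SE 0.61), Myog (2.41, SE 0.50) and Myod1 (2.29, SE 0.63) in front and Acta1 at 2.44 (SE 0.61). In females 3 of 9 were higher, where 14% of all genes were: Myog (1.97, SE 0.50, limma adjusted p = 0.00303), Chrnd (1.65, SE 0.57, limma adjusted p = 0.0263) and Chrna1 (1.61, SE 0.61, limma adjusted p = 0.0444), while Acta1 was at 0.32 and Ckm at -0.01. The gene calls within each sex come from a model of all mice with group by sex terms. A fit of females alone called only 1 member in saline against WT, so the count in females depends on the model. In the model of all mice without the female F209536, Myog was at 1.91 in females and passed (limma adjusted p = 0.00733). Chrnd, at 1.25 (limma adjusted p = 0.0957), and Chrna1, at 1.14 (limma adjusted p = 0.156), did not pass there. The difference between the sexes itself passed for 0 of the 9 genes, where it passed for 2.38% of all genes (514, and 3 to 2005 with 1 library left out). The nearest was Mstn, whose saline effect was larger in males by 2.09 (limma adjusted p = 0.126), from 1.92 in males to -0.17 in females. It did not pass for Acta1 either, at 2.12 (limma adjusted p = 0.137).

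Per muscle amount, saline-treated females and males did not overlap for Trim63, with 8.30 to 19.6 in the females and 4.28 to 7.0 in the males. Nor did they for Myog, with 0.689 to 2.94 in the females and 0.249 to 0.560 in the males. These are 2 of the 9 genes, picked after their values were seen, and 0.436% of all genes tested were separated this way. In WT mice the sexes overlapped for both genes, with 5.67 to 9.76 in females and 6.86 to 9.36 in males for Trim63, and 0.254 to 0.590 in females and 0.124 to 0.419 in males for Myog. Tested as a group by sex term, the saline effect per muscle amount was smaller in males than in females for 5 of the 9 genes, as it was for 70.5% of all genes.

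The saline-treated female F209536 had a muscle amount near the low end of its group, with Acta1 at 379 and Ckm at 50 scaled TPM. It nevertheless had the most Chrna1 of the 12 saline-treated mice (0.891 scaled TPM, the others at most 0.544), the most Chrnd (0.303, the others at most 0.156) and the most Chrng (0.0718, the others at most 0.0483). Per muscle amount it was highest of the 12 for Chrna1 (6.47, the others at most 0.952), Chrnd (2.20, at most 0.471), Musk (6.65, at most 3.44), Myog (2.94, at most 1.84), Myod1 (8.31, at most 6.40), Fbxo32 (30.2, at most 26.4) and Trim63 (19.6, at most 15.2), but not for Mstn (0.913, rank 11). Of other genes that denervated or immature fibers make, picked after their values were seen, it also had the most Sln (2.65, median of the others 0.512), the most embryonic myosin Myh3 (0.395, median 0.112) and the most Myl4 (1.44, median 0.535). Other genes of the same lists did not stand out: Actc1, the actin of heart and developing fibers, was at 0.709 scaled TPM in this mouse (rank 11 of 12, median of the others 3.86), and Myf5 (rank 10), Dach2 (rank 10) and Ncam1 (rank 8) were not high either. Chrne, the gene of the adult epsilon subunit, was at 0.122, with a median of 0.374 in the others, and ranked 6 of 12 per muscle amount. A high rank per muscle amount was common in this mouse: of 102 further genes of muscle pathways and muscle fibers 81 ranked 1 or 2, among them 23 of 23 atrophy genes and 14 of 25 genes of fiber structure (Myh1, Myl1 and Tpm2 at rank 1).

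Further genes of the same pathways were counted beside the 28.9% of all genes that were higher and the 55.8% called in either direction in saline-treated against WT mice. Of 23 further atrophy genes 16 were higher and 1 lower (median log2 fold change 0.43, beside 0.02 for all genes). The members that moved farthest were Ddit4, an inhibitor of growth signalling (2.05, from 6.10 ± 2.10 scaled TPM (SD, n = 12) in WT to 25.2 ± 7.96), Pdk4, which turns fibers to burning fat (2.03), and Map1lc3a, an autophagosome protein (1.0). Of 21 further genes of the neuromuscular junction and of denervation 14 were higher and 2 lower (median 0.80). Sln, sarcolipin, an inhibitor of the calcium pump of the fiber, moved farthest (3.86, from 0.0404 ± 0.0261 to 0.806 ± 0.724 scaled TPM, limma adjusted p = 1.69e-09), followed by Cdkn1a, the cell cycle inhibitor p21 (2.01), and Chrne (1.25). Sln is also made outside skeletal muscle fibers, and was lower in ABE-treated than in saline-treated mice (-1.03, limma adjusted p = 0.0348), unlike the receptor genes.

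Of 17 further genes of satellite cells and regeneration 14 passed the filter, and 10 of these were higher and 0 lower in saline-treated than in WT mice (median 0.99). Actc1, the actin of heart and of developing fibers (2.59), and the myogenic factors Myf6 (1.94) and Myf5 (1.65) moved farthest. Of 16 genes of myostatin signalling 7 were higher and 1 lower (median 0.31), led by Fst, the antagonist follistatin (1.13, limma adjusted p = 1.04e-07), Gdf11, a relative of myostatin (0.58), and the receptor gene Acvr2b (0.54). In ABE-treated against WT mice, where 37.5% of all genes were higher and 36.6% lower, the counts were 18 higher and 2 lower for the atrophy genes, 17 and 2 for the junction genes, 12 and 0 for the regeneration genes, and 12 and 2 for myostatin signalling. In ABE-treated against saline-treated mice, where 25.1% were higher and 24.4% lower, they were 8 and 4, 11 and 2, 8 and 1, and 5 and 0. The 8 of 23 atrophy genes and 5 of 16 myostatin signalling genes are near the share of all genes. Within groups, the median slope on muscle amount was 0.09 for the atrophy genes, 0.19 for the junction genes, 0.44 for the regeneration genes and 0.11 for myostatin signalling.

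Per muscle amount, Sln (2.63), Actc1 (1.36) and Myf6 (0.71) remained higher in saline-treated than in WT mice. In their lists 1 of 21 junction genes was higher and 8 lower, and 2 of 14 regeneration genes were higher and 3 lower. Of the other lists 9 of 23 atrophy genes and 7 of 16 myostatin signalling genes were lower and 0 of either were higher, beside 67.7% of all genes lower and 0.357% higher. Of 8 markers of Schwann cells and nerve, 0 were higher and 2 lower in saline-treated than in WT mice as scaled TPM, where 28.9% of all genes were higher. A positive slope on muscle amount within groups passed for 6 of the 8, and for 28.9% of all genes. Their summed level had medians of 11.2 (WT), 9.08 (saline) and 14.4 (ABE). In ABE-treated against saline-treated mice 4 of the 8 were higher, where 25.1% of all genes were. Tendon markers were higher against WT for 2 of 5 genes in saline-treated mice, where 28.9% of all genes were. In ABE-treated mice 5 of 5 were higher, where 37.5% of all genes were. The part of dissected muscle in the levels of the 10 genes was not tested beyond the ratios and the covariate given above.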

How the data were processed

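Bulk RNA of 36 tibiae was measured with stranded poly(A) libraries. The authors deposited TPM for 56246 genes, made from reads aligned to GRCm38 with STAR 2.73a (per the labels) and counted with QoRTs on GENCODE genes (per their methods). The file also holds the GC content of each gene, a fraction the authors deposited, which entered no test. In each library all TPM above 0 were whole reads (100% within a tolerance of 0.01) divided by gene length less 218 bp, which gave read counts back. Median depth was 78234452.5 reads on genes, and precision is limited by counting for Myog, Chrna1, Chrnd and Chrng, where counts of 3 or fewer were taken as the floor. Very short genes take most of the TPM, so each library was rescaled by the median ratio over the 23632 genes with reads in every library (scaled TPM).

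Tests used limma with trended moderation on log2(scaled TPM + 0.01), with group and sex over all 36 mice, for 21557 genes longer than 219 bp with means of at least 0.02 scaled TPM and 10 reads. A fold change on this scale understates that of rare genes. P-values were adjusted over all genes (Benjamini-Hochberg, threshold 0.05). Muscle amount is the geometric mean of Acta1 and Ckm, and its log2 is the muscle index, which was subtracted (per muscle amount) or used as covariate. Sex differences were tested with group by sex terms. Permutation tests of the muscle index drew 100000 resamples and were exact within a sex. The code was tested on simulated data. Named genes are the 10, Acta1, Ckm, the 3 genes of each pathway list with the largest called change between saline and WT, and the 3 nearest by correlation, of which the text gives the first or 2. The members and lists were chosen with earlier results of these data known. Chosen after seeing the data were the single-library comparisons, the sex difference per muscle amount, the female comparison without F209536, and for the covariate fit all alternatives. Replicates are single mice, and 0 pairs of libraries were duplicates. In 762 cases a gene repeated the symbol of an earlier one. Each that passed the filter was tested, and for a named symbol the most abundant gene is the one described. Of the 10 symbols Fbxo32 stood for 2 genes, and the less abundant is not described here. Gene positions are those of the GENCODE annotation on GRCm38. The work used R 4.3.3, limma 3.58.1, Python 3.11.15, pandas 2.3.3, NumPy 2.4.6, SciPy 1.17.1 and Matplotlib 3.10.9.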

Additional observations from a re-analysis of the deposited data

Results flagged for a closer look

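In 7 of the 108 sets of 6 mice (a gene, group and sex) 1 mouse lay far from the other 5, where chance gives about 1 in 20. In scaled TPM these were Trim63 in the saline-treated female F309418 (0.424, the next at 2.7), and Myod1 (1.2, the next at 0.403) and Musk (0.418, the next at 0.207) in the WT female 604F. Per 1000 units of muscle amount they were Fbxo32 in the ABE-treated female F1WT609535 (15.6, the next at 7.15), Mstn (3.64, the next at 1.77) and Musk (2.78, the next at 1.83) in the WT male 617M, and Chrna1 in the ABE-treated male M509459 (0.125, the next at 0.438). F309418 and 617M are among the mice with the least muscle RNA.

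The saline effect per muscle amount differed between the sexes, smaller in males than in females, for 5 of 9 genes in a group by sex test added after the data were seen. The differences on the log2 scale were -1.33 for Trim63 (limma adjusted p = 0.0429), -1.70 for Myog (0.0429), -2.05 for Chrnd (0.0441), -1.33 for Musk (0.0491) and -2.50 for Gadd45a (0.0429). Of all genes tested 70.5% were called in this direction, with a median of -2.13. Muscle amount itself was higher in saline-treated than in WT mice by 2.31 in males and by 0.15 in females. With the muscle index as covariate 0 of the 9 genes passed for this sex difference (limma adjusted p of 0.0999 or more for each).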

How the results depend on the processing

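No paired analysis was possible because the labels give the 3 groups no shared replicate numbers. Members called in saline against WT (7) fell to 4 with pseudocount and filter at 0.5 and to 1 in females alone. In ABE against saline, 7 became 1 with the covariate, 2 with TPM as deposited, 1 in males and 2 in females. Per muscle amount, saline against WT (2) gave 1 in males, 0 in females and 0 with a pseudocount of 0.1, ABE against WT (4) gave 2 in males and 1 in females, and ABE against saline (2) gave 0 and 1. With the covariate, saline against WT (7) gave 3 in males, ABE against WT (6) gave 2 in males and 2 in females, and ABE against saline (1) gave 0 with the structure list as index, 3 in males and 0 in females. The muscle index differed by 0.15 (saline against WT) and 1.90 (ABE against WT) in females, and by 0.87 in males and 1.74 in females (ABE against saline), none past the threshold. Among values that passed in at least 1 of the fits compared, signs turned for Ckm in females (saline against WT, -0.00977), for Mstn with the covariate (ABE against WT -0.31, ABE against saline -0.0792), per muscle amount with a pseudocount of 0.1 for Chrna1 (saline against WT, -0.0652), Myog (ABE against WT, -0.43) and Chrnd (ABE against WT, -1.37), and for Trim63 with the covariate in males (saline against WT, -0.59). Among values that passed in neither, Mstn (saline against WT) went from 0.87 to -0.23 with the covariate and -0.17 in females, and Fbxo32 (ABE against saline) from 0.49 to -0.24 with the covariate.

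Leaving out 1 library at a time gave 2 to 5 members per muscle amount in ABE against WT and 1 to 3 in saline against WT. There Myod1 (ABE against WT) did not pass in 25 of 36 runs and Myog in 6. Leaving out 1 library moved the all-gene count per muscle amount for saline against WT between 7637 and 19096, and that of sex differences of saline against WT between 3 and 2005 (23 of 36 runs by over 1.5 times). As scaled TPM, Mstn (ABE against saline) did not pass in 12, and Chrnd not without ABE F109436, saline F309418 or saline F309422. Of 942 member values under other settings, 831 kept their side of the threshold, 83 lost it, 21 gained it and 7 turned. Of 4248 with 1 library left out, 4139 kept it and 0 turned. Causes were not tested. All-gene calls for saline against WT (12038) became 7710 at 0.5, 6398 with TPM as deposited and 5020 in females. For ABE against WT (15983) they became 8715 with the covariate and 10219 at 0.5, and for ABE against saline (10655) 2712 with the covariate, 4801 in males and 6428 in females. Per muscle amount, saline against WT (14668) became 35 in females and 7369 with Ckm alone, and ABE against saline (17935) 0 in males. With the covariate, 10659, 8715 and 2712 became 5891 and 2753 in males and, for the last, 908 with the structure list and 2 in females. Sex differences of saline against WT (514) became 1 with TPM as deposited and 4 with the covariate.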
